A study of Mus musculus with 12 samples.

Results

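The stretches of acetylated histone H3 lysine 27 (H3K27ac) that lie directly beside promoters marked by trimethylated lysine 4 (H3K4me3) were described in mouse mesenchymal stem cells (MSCs). A stretch was chosen by the peak lists themselves: the same interval had to be in the H3K27ac lists of both oxygen levels, be under 20000 bp wide, overlap no H3K4me3 peak of either oxygen level and lie within 1000 bp of one. This gave 1818 flanking segments, or 12.4% of the 14614 H3K27ac intervals common to both lists, and they covered 11.2 Mb of the 86.9 Mb in those intervals. Their presence at both oxygen levels, their lack of H3K4me3 and their upper width follow from this choice and are not results.

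ChIP-seq, which sequences the DNA recovered with a modified histone, was performed on MSCs of wild-type male C57BL/6N mice of 3 to 5 months, named bone-marrow cells in the labels and isolated from hind-limb bone according to the methods of the study. By these methods the cells were first grown at 2% oxygen, sorted as CD45- Ter-119- Sca-1+ CD140a+ and then held for 7 days in hypoxia (2% oxygen) or normoxia (21% oxygen). There were 12 libraries in 6 groups of 2, namely H3K27ac, H3K4me3 and input at each oxygen level. The authors merged both libraries of a mark and oxygen level into a single peak list, so the 4 lists carry no value per library. Sequencing depth and the spread between replicates cannot be read from the lists, and no difference described here has a replicate check. The study shows correlation matrices of the libraries of each mark, which were not used here.

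H3K4me3 is deposited around the start of transcribed genes and at CpG islands, which are stretches rich in the dinucleotide CpG. H3K27ac marks active promoters and active enhancers, and at a highly active gene it can run past the promoter, over the upstream sequence or into the gene. A segment with H3K27ac but no H3K4me3 beside a promoter is the place where the first mark goes on after the second has ended.

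The edge between the marks is shown for 6 named genes, to display the bases at which the H3K4me3 call ended and acetylation went on. Calls were made in bins of 1000 bp and steps of 500 bp, so the edge does not place the end of the mark to the base. Each window holds 150 bases to either side of the edge on the strand of the gene (mm10, read from GRCm38.p6), contains no annotated exon, and has every CpG in capitals. At Itga5, Col8a1 and Slc2a1 the H3K4me3 peak comes first and the segment follows into the gene. At Csf1, Fzd7 and Eno1 the segment comes first, and the peak follows towards the start.
Itga5, chr15:103363851-103364150, - strand: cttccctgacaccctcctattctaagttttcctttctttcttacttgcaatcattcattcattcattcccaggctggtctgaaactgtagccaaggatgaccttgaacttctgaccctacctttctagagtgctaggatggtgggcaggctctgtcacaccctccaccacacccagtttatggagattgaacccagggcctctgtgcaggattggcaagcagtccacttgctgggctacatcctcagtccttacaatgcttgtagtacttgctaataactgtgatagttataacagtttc
Col8a1, chr16:57752851-57753150, - strand: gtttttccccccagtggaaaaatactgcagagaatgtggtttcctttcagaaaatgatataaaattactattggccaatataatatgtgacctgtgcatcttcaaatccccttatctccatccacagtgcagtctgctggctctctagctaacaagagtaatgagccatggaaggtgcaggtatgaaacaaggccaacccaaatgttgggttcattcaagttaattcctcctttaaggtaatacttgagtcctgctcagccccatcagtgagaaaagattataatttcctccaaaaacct
Slc2a1, chr4:119111351-119111650, + strand: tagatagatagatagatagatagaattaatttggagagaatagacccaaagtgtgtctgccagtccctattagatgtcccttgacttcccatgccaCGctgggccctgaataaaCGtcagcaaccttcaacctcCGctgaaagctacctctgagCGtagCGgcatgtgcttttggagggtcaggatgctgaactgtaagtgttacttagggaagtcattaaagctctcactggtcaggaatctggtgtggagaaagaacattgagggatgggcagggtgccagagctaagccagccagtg
Csf1, chr3:107760851-107761150, - strand: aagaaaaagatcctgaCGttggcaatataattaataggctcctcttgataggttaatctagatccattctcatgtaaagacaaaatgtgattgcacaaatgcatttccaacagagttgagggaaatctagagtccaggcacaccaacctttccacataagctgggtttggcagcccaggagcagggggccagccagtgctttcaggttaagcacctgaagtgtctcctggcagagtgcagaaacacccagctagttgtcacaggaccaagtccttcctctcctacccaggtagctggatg
Fzd7, chr1:59480851-59481150, + strand: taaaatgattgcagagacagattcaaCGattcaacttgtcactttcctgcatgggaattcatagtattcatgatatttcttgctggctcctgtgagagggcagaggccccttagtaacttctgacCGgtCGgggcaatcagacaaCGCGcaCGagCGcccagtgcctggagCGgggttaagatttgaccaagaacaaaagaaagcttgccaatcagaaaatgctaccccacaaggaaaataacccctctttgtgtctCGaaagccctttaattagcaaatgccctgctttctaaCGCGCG
Eno1, chr4:150235351-150235650, + strand: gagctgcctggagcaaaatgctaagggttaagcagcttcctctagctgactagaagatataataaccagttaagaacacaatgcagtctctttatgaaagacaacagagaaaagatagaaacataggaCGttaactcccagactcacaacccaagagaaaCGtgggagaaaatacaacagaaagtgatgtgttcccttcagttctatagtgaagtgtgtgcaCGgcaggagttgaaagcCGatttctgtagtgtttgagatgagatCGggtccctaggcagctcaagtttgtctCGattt

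For comparison, the 250 bases before the start of 3 of these genes, all inside the neighbouring H3K4me3 peak, are shown in the same way (RefSeq, GRCm38.p6).
Itga5 promoter, chr15:103366792-103367041, - strand: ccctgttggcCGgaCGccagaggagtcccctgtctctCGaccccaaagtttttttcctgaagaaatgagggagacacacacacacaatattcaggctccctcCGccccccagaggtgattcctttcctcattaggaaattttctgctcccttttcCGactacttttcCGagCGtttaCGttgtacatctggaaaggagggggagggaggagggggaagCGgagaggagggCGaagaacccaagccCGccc
Csf1 promoter, chr3:107760470-107760719, - strand: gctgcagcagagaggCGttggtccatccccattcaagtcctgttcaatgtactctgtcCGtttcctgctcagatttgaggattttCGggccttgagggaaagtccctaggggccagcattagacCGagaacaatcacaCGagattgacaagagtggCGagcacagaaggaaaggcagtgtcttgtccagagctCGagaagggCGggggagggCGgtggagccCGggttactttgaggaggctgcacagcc
Fzd7 promoter, chr1:59481897-59482146, + strand: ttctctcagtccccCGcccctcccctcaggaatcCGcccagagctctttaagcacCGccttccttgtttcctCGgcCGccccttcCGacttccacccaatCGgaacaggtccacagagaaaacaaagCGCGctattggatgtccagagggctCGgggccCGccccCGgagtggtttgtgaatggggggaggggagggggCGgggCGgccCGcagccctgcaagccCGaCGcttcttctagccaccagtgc

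The 250 promoter bases held 11 CpG at Itga5, 10 at Csf1 and 17 at Fzd7. Over 300 bases at the edge, Itga5 and Col8a1 held 0 CpG, Csf1 1, Slc2a1 5, Eno1 6 and Fzd7 12. At Fzd7 these were split into 7 on the H3K4me3 side and 5 in the segment. At Itga5 and Csf1 the sequence thus changed from CpG-rich to CpG-poor before the H3K4me3 call ended, and at Fzd7 CpG were still present at the edge.

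The neighbours of the segments were examined first, to check that they are promoters. Of the 1818 segments, 1793 touched an H3K4me3 peak (98.6%), and 15 and 10 were separated from it by 500 and 1000 bp. In these lists an interval ends wherever the call of a mark changes, so that contact follows from how the lists were made. The neighbouring peak lay within 1000 bp of a start of a protein-coding gene for 1619 segments (89.1%, 95% CI 87.5 to 90.4) and of a start of any gene type for 93.2%. The nearest coding start of the segment lay within the neighbouring peak itself in 77.4% of cases. A total of 191 segments had H3K4me3 within 1000 bp of both ends. The name of flanking segments of promoters therefore holds for about 9 in 10, and for the rest H3K4me3 lay away from an annotated coding start. Segments occurred on 20 chromosomes.

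The peak beside a segment nearly always carried H3K27ac as well. It was acetylated at both oxygen levels for 1691 segments (93.0%, 95% CI 91.7 to 94.1), at a single level for 19 and at neither for 108 (5.94%). Among all 14609 H3K4me3 peaks, 49.8% were acetylated at both oxygen levels. Seen from the peaks, 1662 of 7276 doubly marked H3K4me3 peaks had a flanking segment (22.8%), against 126 of 7134 peaks without H3K27ac (1.77%), a difference of 21.1 percentage points (95% CI 20.1 to 22.1). Intervals of shares here are Wilson intervals and those of differences Newcombe intervals. They allow for counting error alone and treat peaks as if they were independent. A neighbouring peak without H3K27ac was more frequent on the gene side (63 of 806 segments, 7.82%) than upstream (33 of 899, 3.67%), a difference of 4.15 points (95% CI 1.95 to 6.46).

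Broad doubly marked H3K4me3 peaks had a flanking segment more often than narrow ones. A peak is here an interval of the lists, which also ends where the H3K27ac call changes. Its width is thus not always that of a whole H3K4me3 domain. For 92 segments the far side of the neighbouring peak touched H3K4me3 without H3K27ac. The share was 19.0% for H3K4me3 peaks of up to 2000 bp, 17.3% between 2000 and 3000 bp, 26.4% up to 4000 bp, 37.2% up to 5000 bp and 43.4% (224 of 516, 95% CI 39.2 to 47.7) above 5000 bp. The narrowest classes did not differ beyond their intervals (16.6 to 21.6 and 16.1 to 18.6). Segments on both sides were rare, being found at 205 H3K4me3 peaks, 200 of them doubly marked.

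Segments were then placed relative to the nearest coding start. A segment was called upstream when it lay before the start and into the gene when it lay on the transcribed side, even where it ran past a short gene. Of the 1818 segments, 899 lay upstream (49.4%), 806 into the gene (44.3%) and 113 contained another coding start (6.22%). Among the 1705 to one side, 47.3% lay into the gene (95% CI 44.9 to 49.6), and upstream segments were the more numerous on 17 of 20 chromosomes. This balance depends on the width limit. Of the 255 segments of 20000 bp or more that otherwise met the rule, 222 lay to one side and 180 of these into the gene (81.1%), and with them included the share became 51.2% (95% CI 48.9 to 53.4).

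Acetylated segments further from H3K4me3 lay more often on the transcribed side of the nearest coding start, which need not be inside the gene. At over 10000 bp from H3K4me3 that start was a median of 43037.5 bp away. Of these distant segments, at any width, 41.3% had no base in a coding gene. The share was 31.3% at up to 10000 bp and 32.4% for the flanking segments. Under the same width limit, the share was 54.1% for 571 segments at over 1000 and up to 10000 bp from an H3K4me3 peak and 59.5% for 4135 segments at greater distance. The flanking segments differed from these by -6.84 points (95% CI -11.5 to -2.10) and -12.3 points (95% CI -15.1 to -9.46). Most upstream segments had no base in a coding gene (538 of 899, 59.8%), but 26.3% lay wholly within one. On the gene side 77.9% lay wholly within a coding gene. Exons made up 10.1% of the bases upstream and 9.95% into the gene.

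The sides also differed in width. The median was 3000 bp upstream (quartiles 1500 and 6000) and 7000 bp into the gene (quartiles 4000 and 11000), and the gene side had the wider median on 20 of 20 chromosomes. Segments of up to 1000 bp made up 21.9% of the upstream and 3.47% of the gene side, while 8.79% and 28.9% were over 10000 bp. Accordingly the share into the gene was 12.4% among segments of up to 1000 bp (28 of 225), 38.2% from there to 5000 bp, 60.2% up to 10000 bp and 74.7% above (233 of 312, 95% CI 69.6 to 79.2). With starts of genes of any type in place of coding starts the difference of the medians was 3000 bp, and with a width limit of 10000 bp it was 2500 bp. All widths are multiples of 500 bp, the step of the peak calling.

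**Figure D1:**
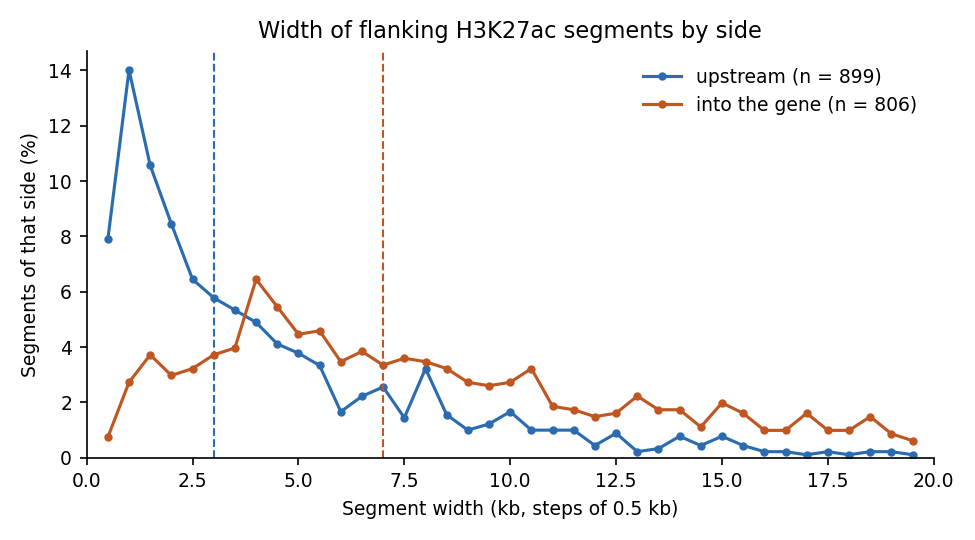
Share of flanking H3K27ac segments of each side (y axis, percent) by width (x axis, kb), with the medians as dashed lines at 3000 bp for 899 upstream and 7000 bp for 806 into-gene segments. Narrow segments lie mostly upstream, and the gene side has the longer tail up to the width limit.

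H3K4me3 itself was lopsided around the start. Segments were taken that touched a peak holding a coding start. Coding starts within 5000 bp of that peak had to be on a single strand. The gene of the nearest start had to have a start within 1000 bp of the peak, so the measured start could lie outside it. Upstream, the segment began a median of 996 bp before the start (n = 695, quartiles 756 and 1313). On the gene side it began 2262 bp after the start (n = 596, quartiles 1766 and 3028). Coverage of upstream segments was 79.5% at 1750 bp before the start and 10.8% at 10000 bp. On the gene side it was 85.6% at 4250 bp, 47.3% at 10000 bp and 22.3% at 15000 bp past the start. Among these segments the reach on the transcribed side was therefore greater for H3K4me3 and, beyond it, for H3K27ac. The sides were measured on separate sets of segments, all under 20000 bp wide. The reach of H3K27ac was not compared within the same promoters.

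**Figure D2:**
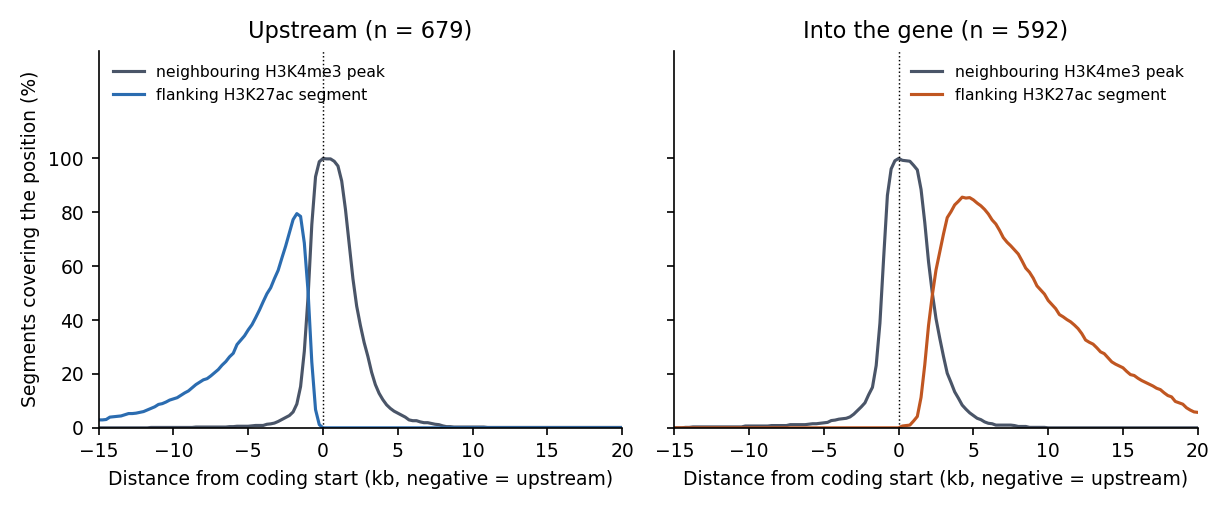
Percentage of segments (colour) and of their neighbouring H3K4me3 peaks (grey) that cover each position (y axis) against the distance from the coding start in kb (x axis, negative is upstream). Shown are 679 upstream (left) and 592 into-gene segments (right), each with its nearest start in the touching peak, which are a part of all such segments. Coverage by the segments is highest at 79.5% about 1.75 kb upstream and at 85.6% about 4.25 kb into the gene. It leaves out the acetylation of the H3K4me3 peaks themselves, which the rule excludes.

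Within genes, the segments started in the first intron as a rule. For 694 into-gene segments with a start within 5000 bp, the end nearest the start fell in the first intron of the longest coding transcript from that start in 517 cases (74.5%, 95% CI 71.1 to 77.6), in a later intron in 96 and in a later exon in 53. The far end lay in the first intron for 305 segments (43.9%), in a later intron for 188 (27.1%) and past the end of the transcript for 172 (24.8%). Of all their bases, 57.9% were in the first intron. The far end lay a median of 9282 bp from the start (quartiles 6414 and 13783). A start of a non-coding gene was contained in 12.2% of into-gene and 6.56% of upstream segments.

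The widest segments into a gene, with the nearest coding start within 5000 bp, were at Asap1, Acvr1b, Col8a1, Nr1d1 and Ssr3 with 19500 bp each and at Rap1b, Acvr1 and Rbms1 with 19000 bp each. Acvr1b and Acvr1 encode receptors for activins and bone morphogenetic proteins, and Col8a1 encodes a collagen chain. The segment in Acvr1b (chr15:101177001-101196500) began 2934 bp from the start and was 2.83% exonic, with scores of 129 in hypoxia and 98 in normoxia. The score is a value per peak given by the authors without a definition, its values are 50 to 160 or a fixed 1000, and it serves here as a description only. The segment in Col8a1 (chr16:57733501-57753000) lay wholly in introns and scored 59 and 73. That of Acvr1 (chr2:58545001-58564000), also free of exons, scored 94 in hypoxia and 1000 in normoxia. At Nr1d1, which encodes a circadian repressor, the segment (chr11:98752001-98771500) filled the space between a pair of H3K4me3 peaks and scored 104 and 100.

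The widest upstream segments were at Poldip3 (19500 bp), Ahnak and Tnnt3 (19000 bp each), Nfu1 (18500 bp), Ndst1 (18000 bp), Csf1 and Pigv (17500 bp each) and Inpp5e (17000 bp). Csf1 encodes macrophage colony-stimulating factor. Its segment (chr3:107761001-107778500) began 532 bp before the start, touched no coding gene and scored 128 in hypoxia and 112 in normoxia. At Ahnak, which encodes a large scaffold protein, the segment (chr19:8969001-8988000) scored 131 at both oxygen levels and ended in H3K4me3 on either side. The segments at Inpp5e and Ndst1 lay wholly in bodies of coding genes, and 68.8% of the bases of that near Nfu1 were exonic. The segment near Tnnt3, encoding a troponin of skeletal muscle, touched an H3K4me3 peak that did not hold the start of Tnnt3, and its nearest start is thus not that of the neighbouring promoter.

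Among H3K4me3 peaks at a coding start, 166 had a segment at each end. Those with the greatest summed width lay at Poldip3, Nr1d1, Lats2, Rara, Ahnak and Ahcyl1. At Lats2, which encodes a kinase of the Hippo pathway, the segment on the gene side (14500 bp), which held a further start of the gene, scored 98 in hypoxia and 94 in normoxia, and the one upstream (15500 bp) scored 1000 at both. At Ahcyl1 the segments were 15000 bp (106 and 105) and 12500 bp (77 and 65). At Rara, which encodes a retinoic acid receptor, 10500 bp into the gene scored 136 and 135, and 19000 bp on the other side, which held a further start of the gene, scored 88 and 81. The sides of a promoter thus did not carry equal scores at these loci.

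Segments near the width limit were as follows. Just inside it were segments of 19500 bp at Utrn, Nr1d1 and Asap1, with hypoxia scores of 66, 104 and 131 and normoxia scores of 68, 100 and 131. Just outside were 20000 bp segments nearest Nacad, Zzz3 and Pptc7, with 82, 133 and 136 in hypoxia and 79, 118 and 136 in normoxia.

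Base composition was compared because H3K4me3 is linked to CpG islands. Flanking segments had a median of 1.09 CpG per 100 bp and a GC content of 46.3%, against 3.38 and 52.3% for their neighbouring peaks. Taken pair by pair, the peak exceeded its segment by a median of 2.28 CpG per 100 bp (quartiles 1.36 and 3.21) and was the richer for 1771 of 1818 (97.4%). The values of the segments were near those of acetylated segments at up to 10000 bp (1.14) and over 10000 bp from H3K4me3 (1.02). The fall in CpG density lay inside the called H3K4me3 peak and not at its called edge. Calls were made in bins of 1000 bp and steps of 500 bp. The end of the mark itself is therefore not placed more finely than this. Upstream it reached 6.61 ± 0.170 per 100 bp (SEM, n = 891 edges) at 1150 bp inside the peak, and it was 1.26 in the last 100 bp before the edge and 1.19 in the first 100 bp of the segment. On the gene side the highest value was 4.97 ± 0.171 (n = 794) at 1850 bp inside the peak, with 1.21 on either side of the edge. At 550 bp inside the edge the density was 1.53 on the gene side and 2.69 upstream, so the H3K4me3 call ran on over CpG-poor sequence for longer into the gene.

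**Figure D3:**
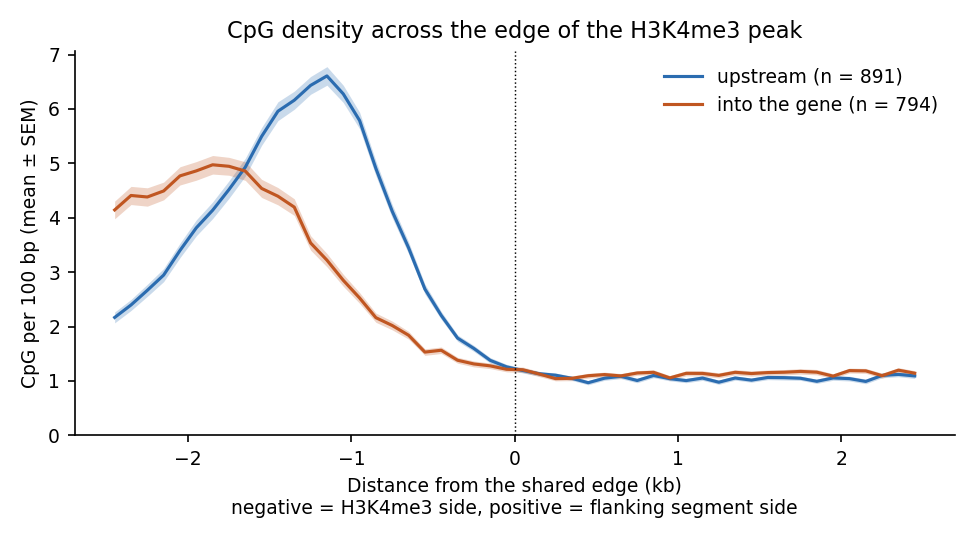
Mean CpG per 100 bp (y axis, shading is the SEM over edges) against the distance from the edge shared by the H3K4me3 peak (negative) and the flanking segment (positive) in kb (x axis), for 891 upstream and 794 into-gene edges. The density peaks at 6.61 upstream and 4.97 on the gene side and is near 1.2 at the edge. Segments and peaks narrower than 2.5 kb end within the plotted range.

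Short sequence motifs were counted in the 300 bp at the centre of each segment, on both strands. The Runx motif TGTGGT, the core bound by Runx proteins such as the bone regulator Runx2, was present in 25.9% of segments and 12.6% of their neighbouring H3K4me3 peaks, a difference of 13.2 points (95% CI 10.7 to 15.8). Acetylated segments over 10000 bp from H3K4me3 held it in 24.6% of cases, and the difference of 1.30 points from the flanking segments had an interval including 0 (-1.03 to 3.70). The AP-1 motif TGANTCA, bound by Fos and Jun proteins, was present in 9.08% of flanking segments, 6.0% of neighbouring peaks and 13.3% of the distant segments, so that flanking segments differed from the former by 3.07 points (95% CI 1.31 to 4.83) and from the latter by -4.19 points (95% CI -5.79 to -2.49). In the same order of classes, the TEAD motif GGAATG was found in 15.5%, 14.1% and 18.9%, and the NF-Y motif CCAAT in 29.7%, 24.7% and 32.3%. The CRE motif TGACGTCA occurred in 4 segments (0.220%) and 10 neighbouring peaks (0.606%). GC content differed between the classes, and its part in these shares was not tested. A motif match is not evidence of binding.

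The scores of the same interval in hypoxia and normoxia were compared next, because the study asked how oxygen alters histone acetylation. Flanking segments had a median score of 84 in hypoxia and 78 in normoxia, against 115 and 103 for all common H3K27ac intervals. The latter values rest on intervals with H3K4me3 (132 and 128), and the other segments without H3K4me3 scored much like the flanks, with 88 and 81 at up to 10000 bp and 85 and 84 at over 10000 bp. Where the neighbouring peak was acetylated too, its H3K27ac score was higher than that of the segment in both lists for 1215 of 1691 pairs (71.9%) and lower in both for 121. With scores of 1000 left out, 872 of 1619 segments scored higher in hypoxia (53.9%, 95% CI 51.4 to 56.3), 391 higher in normoxia (24.2%) and 22.0% had equal scores. Among all common H3K27ac intervals the shares were 45.6%, 20% and 34.4%. The flanking segments differed from the pooled other intervals by 9.64 points for hypoxia (95% CI 7.01 to 12.3) and 4.92 points for normoxia (95% CI 2.74 to 7.20). That pool was mixed, since 47.7% of intervals with H3K4me3 had equal scores, against 26.7% and 25.6% of the segments without H3K4me3 at up to and over 10000 bp. The segments at up to 10000 bp, with 50.9% higher in hypoxia and 22.3% higher in normoxia, differed from the flanks by intervals including 0 (2.93 points, 95% CI -1.76 to 7.62, and 1.82 points, 95% CI -2.25 to 5.65). Among unequal pairs the hypoxia score was the higher in 69.0% of flanking segments and 69.6% of all intervals, a difference from the other intervals of -0.65 points (95% CI -3.50 to 2.10). By class, however, this share was 84.1% with H3K4me3, 69.5% at up to 10000 bp and 58.1% at over 10000 bp. The flanks thus lay between promoters and distant segments, at -15.1 points from the former (95% CI -18.0 to -12.2) and 10.9 points from the latter (95% CI 7.79 to 14.0), and -0.47 points from the segments at up to 10000 bp (95% CI -5.37 to 4.66).

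The difference between lists was small for most segments, with a median of -1 (quartiles -9 and 0, normoxia minus hypoxia). It exceeded 20 score units towards hypoxia in 184 segments (11.4%) and towards normoxia in 46 (2.84%), against 11.1% and 2.81% of all intervals. By side, 56.8% of into-gene and 50.3% of upstream segments scored higher in hypoxia, a difference of 6.47 points (95% CI 1.45 to 11.4). Without ties the shares were 68.5% on either side. In bands of the mean score of both lists, the flanking segments and the other intervals scored higher in hypoxia in 40.2% and 30.4% of cases from 50 to 60, 56.3% and 46.7% to 80, 66.6% and 58.8% to 100, 59.9% and 65.8% to 120, and 40.7% and 27.6% above. The order was reversed in the band from 100 to 120. How the score follows from the reads is not stated, and a difference in it is not a measured difference in acetylation.

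**Figure D4:**
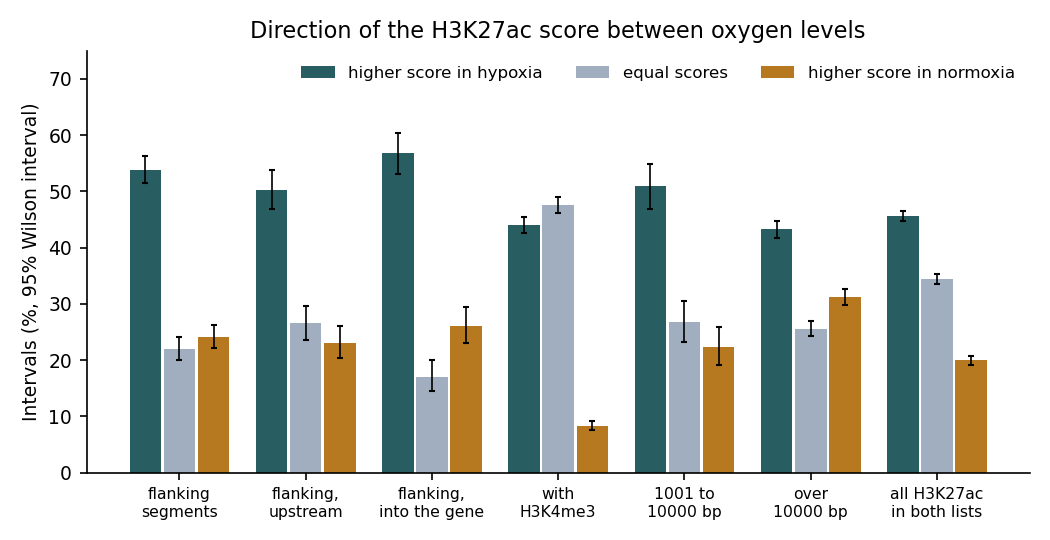
Percentage of intervals (y axis, bars with 95% Wilson intervals) whose H3K27ac score was higher in hypoxia, equal, or higher in normoxia, with scores of 1000 left out, for the flanking segments, each side of them, other H3K27ac classes by H3K4me3 and distance from it, and all intervals in both lists (x axis). Flanking segments stand at 53.9%, 22.0% and 24.2%, against 45.6%, 34.4% and 20% for all.

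Of the named segments, the greatest surplus in hypoxia was at Smim1, a small membrane protein, where 5500 bp into the gene scored 147 in hypoxia and 67 in normoxia. At Orai3, a subunit of a calcium channel, the upstream segment went from 129 to 61. Ndufa4l2, which is known as a target of hypoxia-inducible factor, had a segment of 3000 bp into the gene (chr10:127517001-127520000) with 138 and 74. A segment of 1500 bp upstream of Sp7 scored 123 and 62, and one of 5500 bp upstream of Fam110a 124 and 65. In the opposite direction, Spen scored 59 in hypoxia and 110 in normoxia over 13000 bp into the gene, Rars 79 and 125, Errfi1 79 and 123, Lox 67 and 110 over 8000 bp upstream, and Zdhhc20 69 and 109. Lox encodes lysyl oxidase, which cross-links collagen, and Errfi1 an inhibitor of epidermal growth factor receptor signalling. These pairs were named for the size of their difference, so that each lies beyond the quartiles of the differences follows from the choice. Without replicates no more can be said of them.

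Genes were then grouped, to describe which promoters had flanking segments. Of 12860 coding genes with H3K4me3 within 1000 bp of a start, 1733 had a segment beside that peak (13.5%), and of the 7724 with both marks there 1614 did (20.9%). These are the shares against which the lists of 24 to 36 genes, and the smaller marker lists, are set. No test of a list was made.

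The actin cytoskeleton and adhesion list had a segment at 24 of 36 genes (66.7%, 95% CI 50.3 to 79.8), of which 16 had one upstream, 16 one into the gene and 9 both. Its H3K4me3 peaks all carried H3K27ac. Itga5, encoding the alpha subunit of the fibronectin receptor, had 15500 bp into the gene with scores of 90 in both lists. Pdlim7 had 15000 bp (76 in hypoxia and 87 in normoxia) and Acta2, which encodes smooth muscle actin, 14500 bp (81 and 80). The list for the extracellular matrix had segments at 17 of 31 genes (54.8%, 95% CI 37.8 to 70.8). Among these were Col8a1, Col1a1 (18500 bp into the gene, 124 and 122), Loxl1 (16000 bp, 63 and 63) and Lox (12000 bp into the gene, 76 and 83). Col1a1 encodes the main collagen chain of bone.

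Hypoxia response genes had a segment in 14 of 31 cases (45.2%, 95% CI 29.2 to 62.2). Slc2a1, encoding the glucose transporter GLUT1, had 16000 bp into the gene (chr4:119111501-119127500) with a score of 1000 in both lists. Eno1, a glycolytic enzyme, had 10000 bp upstream (chr4:150225501-150235500) with 134 in hypoxia and 96 in normoxia, P4ha1, a collagen prolyl hydroxylase subunit, 9500 bp into the gene with 63 and 52, and Ldha, lactate dehydrogenase A, 7500 bp upstream with 1000 in both. The AP-1 and immediate early list had segments at 12 of 26 genes (46.2%), with Zfp36 (17000 bp, 1000 in hypoxia and 107 in normoxia), Ier5 (12500 bp, 117 and 135), Dusp1 (10000 bp, 128 and 128) and Klf6 (9500 bp, 1000 in both) the widest. The mesenchymal transcription factors had them at 13 of 32 genes (40.6%), led by Ebf1 (19000 bp, 63 and 55), Foxp1 (18000 bp, 96 and 107), Zeb1 (16000 bp, 63 and 62) and Tead3 (15500 bp, 112 and 86), each into the gene.

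For signalling and lineage lists the base matters, since both marks were present at 18 of 31 Wnt, 9 of 17 adipogenic and 11 of 19 osteogenic genes with H3K4me3, and at 28 of 32 TGF-beta and BMP genes. Wnt signalling had segments at 10 of 31 genes (32.3%, 95% CI 18.6 to 49.9), and at 50% of the 18 genes with both marks. For comparison, on that base the share was 50% for the AP-1 list, 48.1% for the mesenchymal transcription factors and 51.9% for hypoxia response. The Wnt genes with segments included the co-receptor Lrp6 (13500 bp, 75 in hypoxia and 88 in normoxia), the transcription factor Tcf7l2 (13500 bp, 77 and 65), the receptor Fzd7 (9000 bp upstream, 118 and 91) and Dvl3 (7000 bp upstream, 63 and 63). TGF-beta and BMP signalling had them at 8 of 32 (25%, and 28.6% of those with both marks), with the receptors Acvr1 and Bmpr1a (17500 bp, 71 and 58), the repressor Tgif1 (15500 bp, 104 and 133) and the ligand Tgfb2 (8500 bp, 115 and 113). Adipogenic genes had them at 5 of 17 (29.4%, and 44.4% of those with both marks), with Cebpd (7000 bp, 60 and 61), Srebf1 (5500 bp, 52 and 52), Klf15 (2500 bp, 70 and 70) and Cebpb (2000 bp, 63 and 55). Osteogenic genes had them at 5 of 19 (26.3%, and 36.4% of those with both marks), namely Sp7, Atf4, Col1a1, Bmpr1a and Fosl1.

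The housekeeping lists were near the background. Ribosomal proteins, all 30 with both marks, had a segment at 6 genes (20%, 95% CI 9.51 to 37.3), of which Rps3 (11500 bp, 97 and 76) and Rps12 (8500 bp, 84 and 66) had the widest, followed by Rpl18 (5000 bp, 63 and 63) and Rpl10a (3000 bp, 128 and 128). The respiratory chain had one at 3 of 30 (10%, 95% CI 3.46 to 25.6), namely Ndufv2 (10000 bp, 77 and 77), Cox4i1 (3500 bp, 64 and 55) and Uqcrc2 (1500 bp, 53 and 53). Promoter width differed between the lists. The median H3K4me3 peak at the start was 2500 bp over all genes and for the respiratory chain. It was 3500 bp for ribosomal proteins, hypoxia response, Wnt signalling and adipogenic genes. The extracellular matrix and the mesenchymal stromal markers had 4000 bp and the AP-1 list 4250 bp. The median was 4500 bp for the actin, TGF-beta and BMP, and osteogenic lists, and 6500 bp for the mesenchymal transcription factors. The part of promoter width in the shares was not tested.

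**Figure D5:**
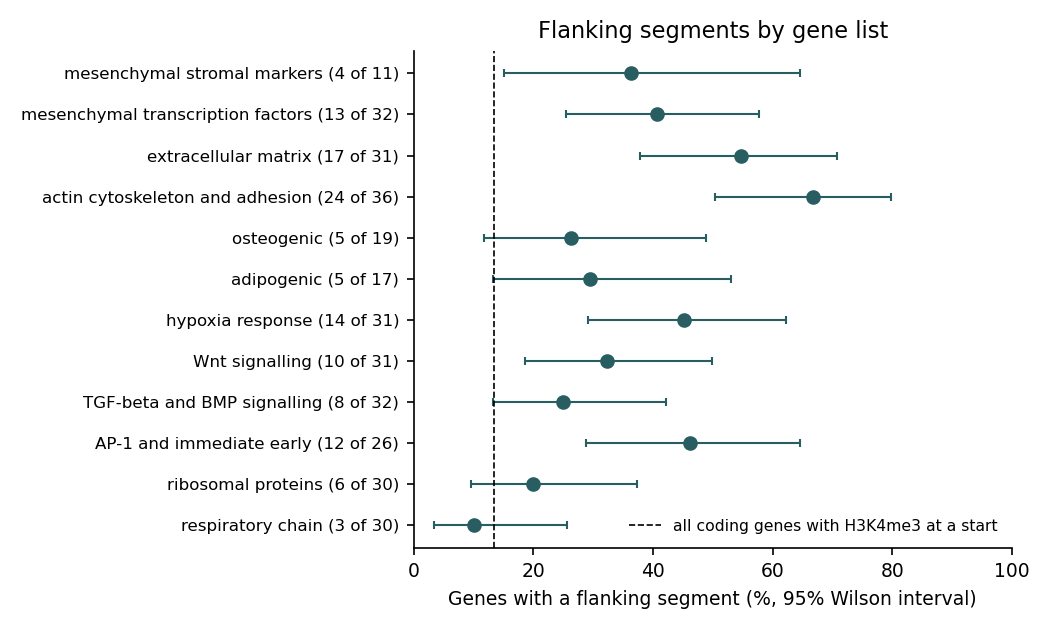
Percentage of the genes of each list with H3K4me3 at a start that had a flanking segment (x axis, points with 95% Wilson intervals, counts in the row names), for the 12 lists with at least 10 such genes. The dashed line is the 13.5% of all coding genes, and the points range from 10% for the respiratory chain to 66.7% for actin cytoskeleton and adhesion.

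The study showed H3K27ac at Sp7, and chromatin accessibility, a different measure, at the promoters of Wnt1, Bglap, Bmp2 and Dlx3. Of these bone formation genes, only Sp7 had a segment beside an H3K4me3 peak at its start. Sp7, also known as osterix, encodes a transcription factor required by bone-forming cells. Its into-gene segment (chr15:102354501-102364500) touched the H3K4me3 peak at the start, which carried no H3K27ac itself, and scored 139 in hypoxia and 111 in normoxia. This places Sp7 among the 63 into-gene segments beside an unacetylated promoter. A further segment upstream, 11033 bp from the start, touched a separate acetylated H3K4me3 peak and was assigned to Sp7 as its nearest coding start. The other genes were counted only by peaks at their own start. Bmp2 and Dlx3 had H3K4me3 at the start but not H3K27ac at both oxygen levels, and neither had a segment beside that peak. H3K27ac at a single level was not separated in this count. Wnt1 and Bglap had no H3K4me3 at a start, so no flanking segment could be counted for them.

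The cell type was checked against its markers. Of 12 mesenchymal stromal markers, 11 had H3K4me3 at a start, 7 of these with H3K27ac at both oxygen levels, and 4 had a flanking segment. Of 10 haematopoietic markers 1 had H3K4me3, Ikzf1, and of 6 endothelial markers 2 did, Kdr and Erg. H3K27ac at both oxygen levels and segments were counted only at H3K4me3 peaks near a start. The haematopoietic and endothelial markers without such a peak could therefore have neither. Ikzf1, Kdr and Erg had no H3K27ac at both levels and no segment. H3K4me3 peaks acetylated at both levels were thus found among the stromal markers only. The stromal markers with segments were Pdgfrb (1500 bp upstream, 59 in hypoxia and 72 in normoxia), Thy1 (3500 bp upstream, 125 and 78, and 5000 bp over a further start, 68 and 80), Vcam1 (13500 bp into the gene, 126 and 1000) and Twist1 (5500 bp past the gene, 96 and 90). At Thy1 the H3K4me3 peak between its segments was acetylated only in hypoxia, with a score of 55. Ly6a, which encodes the Sca-1 used for sorting, had no H3K4me3 at a start in these lists.

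Flanks called at a single oxygen level were left out by the rule. There were 208 of them, 156 in hypoxia (75%, 95% CI 68.7 to 80.4) and 52 in normoxia. Of all 807 H3K27ac intervals in a single list, 589 were in hypoxia (73.0%, 95% CI 69.8 to 75.9), so the split of the flanks was near that of all. The flanks of a single list made up 9.12% of all 2281 flanks of either list (95% CI 8.0 to 10.4), while 5.23% of all H3K27ac intervals were in a single list (95% CI 4.89 to 5.60). That pool was mixed, since it included the intervals with H3K4me3, of which 199 were in a single H3K27ac list and 7276 in both. A share for the intervals without H3K4me3 alone was not computed.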

How the data were processed

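ChIP-seq libraries of H3K27ac, H3K4me3 and input (12 in all, 2 per group) came from MSCs in hypoxia or normoxia. According to the labels and the methods of the study, the authors aligned reads to mm10 (Bowtie2), filtered duplicates (Picard) and ran chromstaR, a hidden Markov model, in differential mode between oxygen levels (bin size 1000 bp, step 500 bp, mapping quality of at least 15). Versions of these tools are not given in the sources used here. The authors deposited 4 peak lists with a score per peak, whose definition is not stated. Overlapping intervals of the lists were always identical, so boundaries are not independent between lists.

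Distances, sides and base composition were computed in Python 3.11.15 (NumPy 2.4.6, SciPy 1.17.1, pysam 0.24.0, matplotlib 3.10.9) from GENCODE M21 basic coding transcripts and GRCm38.p6, and tested on simulated intervals. No tests between conditions were possible. Members and gene lists were chosen with earlier results of these data known. Named were the 8 widest segments per side, 5 score differences per direction, 6 peaks with both sides, 3 segments on each side of the width limit, marker and study genes, and up to 4 widest examples per list. An example of the actin list is not reported here. Members per list are given for 14 lists of genes written from general knowledge. Other segments mentioned at these loci were chosen after their values were seen.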

Additional observations from a re-analysis of the deposited data

How the results depend on the processing

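No paired analysis was possible because a list merges the libraries of its group and gives no value for either, and leaving out a replicate could not be done for the same reason. Of 47 values under other settings, 38 stayed within the interval of the main value (counts within 1.5 times), 9 moved and 0 reversed. Without segments in the lowest-scoring 25% of either list, 1020 of 1818 remained and the CpG difference was 2.16 per 100 bp. A width limit of 10000 bp gave 40.6% into the gene and a width difference of 2500 bp, and no width limit, chosen after seeing the data, gave 51.2% and 5500 bp, since the wide segments lie mostly in genes. With starts of any gene type the width difference was 3000 bp and 93.2% of neighbouring peaks lay at a start. As an observed over expected ratio, CpG was higher in the peak by 0.299. Sharing by 1 bp of overlap moved nothing, since overlapping intervals were identical, so it says nothing about stability. Depth and replicate spread cannot be judged from the lists.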
